A study of Mus musculus with 18 samples.

Results

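The narrow active regions described here are places on the autosomes of mouse embryonic fibroblasts (MEFs) where both activity-associated histone marks measured in the study were called with and without Cre. Each is a peak of the GFP H3K4me3 list on chromosomes 1 to 19 that is narrower than 4000 bases. It shares at least 1 base with a peak in each of the Cre H3K4me3, Cre H3Ac and GFP H3Ac lists, and with no peak in any of the H3K27me3 and H3K9me3 lists. Of 23808 GFP H3K4me3 peaks, 22967 lay on the autosomes, and 15918 of these (69.3%, exact 95% binomial interval 68.7% to 69.9%) met the rule. The regions were thus chosen by the measured peak calls and widths themselves, so their widths, scores and overlaps are given below as a description.

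The study asked where the retinoblastoma protein Rb, a tumor suppressor that restrains entry into the cell cycle, binds in MEFs, and how its loss alters transcripts and histone marks. Cre MEFs were infected with an adenovirus that carries Cre recombinase (Adeno-Cre), which deletes the conditional allele. GFP MEFs received an adenovirus that carries a green fluorescent protein (Adeno-GFP) and no recombinase. Cells of both conditions carried the conditional Rb allele on a mixed B6;129 background, had been expanded for no more than 3 passages, and had not been given the reprogramming factors. Chromatin was immunoprecipitated with antibodies to acetylated H3 (H3Ac), H3K4me3, H3K27me3 and H3K9me3 and sequenced, with 1 library per mark and condition. The histone immunoprecipitations are numbered replicate 3 in the labels, while the histone input is numbered 3 for Cre and 1 for GFP. The number and sex of the embryos are not in the labels, and the share of cells that had recombined was not measured in the lists. Every difference between Cre and GFP below is therefore a difference between 2 libraries, with no replicate check and no test. In such bulk chromatin, a mark in fewer cells and less of the mark per cell cannot be told apart.

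H3K4me3 is deposited on the nucleosomes around active transcription start sites, mostly by COMPASS-family methyltransferases, and is recognised by proteins that help assemble the transcription machinery. Acetylation of H3 tails loosens nucleosomes and is read by bromodomain proteins; it marks active promoters and also active enhancers, where H3K4me3 is usually low. Around an active start, the marked nucleosomes flank a stretch depleted of nucleosomes, so the signal of either mark can dip over the start itself. H3K27me3 is the Polycomb repressive mark and H3K9me3 a mark of heterochromatin. The name promoter-like rests on the marks alone, since no transcript starts of the files' genome build (NCBIM37) were used here. All coordinates below are in that build, counted from 1.

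The rule removed peaks in steps. The width limit left 22079 autosomal peaks, GFP H3Ac left 17654, Cre H3K4me3 left 17157, Cre H3Ac left 16872, and the absence of repressive peaks left the 15918. The loss at each step depends on the order. Taken alone, 80.5% of the autosomal peaks met GFP H3Ac, 89.4% Cre H3K4me3 and 82.5% Cre H3Ac, and 81.8% met no repressive peak. In the order used, the largest loss was at GFP H3Ac, where 4425 peaks dropped out. Those peaks had a median width of 908 bases and a median score of 91.57, against 1539 bases and 1091 for the narrow active regions. The score is the authors' own value per peak, of the kind MACS gives (−10 times the log10 of a p-value), and is used only to rank or describe peaks. Another 497 peaks dropped out for want of Cre H3K4me3, with a median score of 72.97, and 285 for want of Cre H3Ac, with a median score of 126.6. The 954 peaks that dropped out at the last step, over a repressive peak, were nearly as wide as the retained ones at 1434 bases, with a median score of 428. These values were part of the choice and describe it.

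The width limit cut through a continuous range. Just inside it, the peaks at chr12:80395584-80399582 and chr17:13107565-13111563 were 3999 bases wide and the peak at chr14:47993542-47997535 was 3994 bases wide. Their Cre H3K4me3 peaks were 4844, 3986 and 4059 bases wide. Just outside it, among peaks that met the rest of the rule, chr11:78347825-78351825 was 4001 bases wide, and chr1:92100122-92104123 and chr11:29445397-29449398 were 4002 bases wide. Their Cre peaks were 4135, 5156 and 3383 bases wide, so the Cre widths on the inner and outer side of the limit overlapped. In all, 788 wide peaks met the rest of the rule, and 826 narrow active regions (5.19%) had a single Cre H3K4me3 peak of at least 4000 bases.

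H3K4me3 peaks at these regions were wider in Cre MEFs than in GFP MEFs, while H3Ac peaks had nearly the same median width. The summed width of the Cre H3K4me3 peaks at a region ran from 376 to 11840 bases with a median of 2016.5, against 365 to 3999 bases with a median of 1539 in GFP. The upper end in GFP was set by the rule. H3Ac ran from 360 to 22203 bases in Cre with a median of 2074, against 302 to 24423 bases in GFP with a median of 2062. In total the regions met 14803 distinct Cre H3K4me3 peaks, 16686 Cre H3Ac peaks and 17041 GFP H3Ac peaks. Since a whole Cre peak is counted at a region even where it runs on over other GFP peaks, while the GFP width is that of the region alone, the rule itself raises the Cre H3K4me3 widths.

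**Figure D1:**
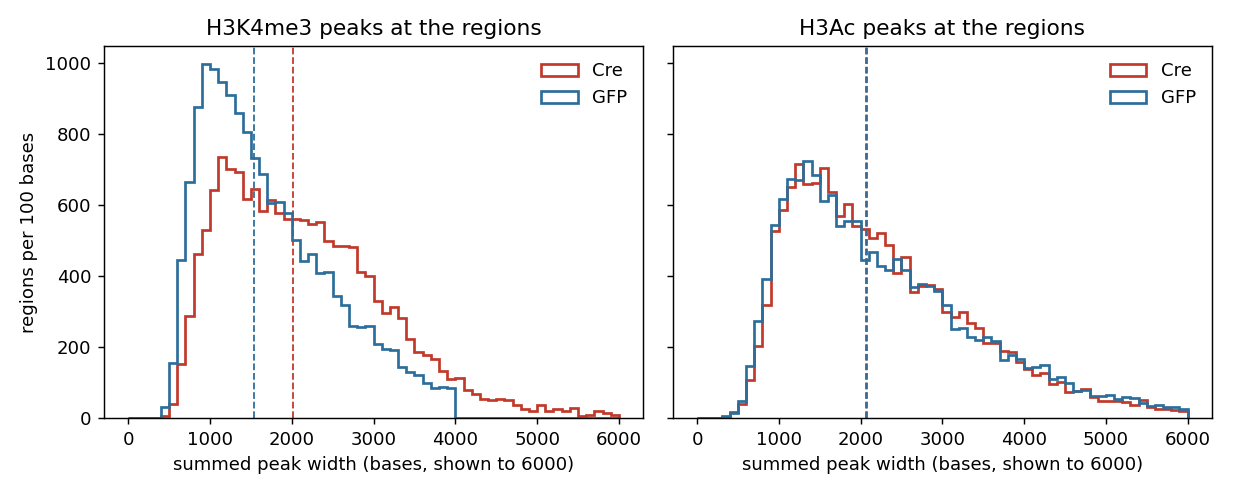
Number of narrow active regions per 100 bases of summed peak width for H3K4me3 (left) and H3Ac (right), in Cre (red) and GFP (blue), with dashed lines at the medians and the axis shown to 6000 bases. The Cre H3K4me3 curve lies to the right of the GFP curve (medians 2016.5 and 1539 bases), which the rule stops at 4000 bases, while the H3Ac curves lie over each other (medians 2074 and 2062 bases).

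Region by region, the median ratio of Cre to GFP H3K4me3 width was 1.12 (95% interval of the median 1.11 to 1.12), and 12130 regions (76.2%) were wider in Cre. The ratio was at least 1.5 at 3404 regions (21.4%), where 21.4% of all 20543 autosomal GFP H3K4me3 peaks with a Cre counterpart passed the same limit. It was at most 1 over 1.5 at 83 regions (0.521%), against a background of 1.29%. The other 4625 autosomal peaks with a Cre counterpart had a median ratio of 1.11. For H3Ac the median ratio was 0.996 (0.992 to 0.999), with 48.8% of regions wider in Cre. It was at least 1.5 at 986 regions (6.19%, background 6.27%) and at most 1 over 1.5 at 928 regions (5.83%, background 6.34%). Since the rule used the presence of these peaks, the shares describe the regions and support nothing about them. The other autosomal peaks showed wider H3K4me3 calls in Cre too, apart from those of at least 4000 bases in GFP, whose median ratio was 0.996. Picking peaks for a wide GFP call itself lowers that ratio, and the limit below 4000 bases raises the ratio of the regions.

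Part of the H3K4me3 ratio came from peaks that were broken in GFP and whole in Cre. The 5 largest ratios are all of this kind. At chr2:50994399-50994971 the Cre peak was 10497 bases wide with a score of 3100, against a GFP peak of 573 bases with a score of 56.92, a ratio of 18.3. The H3Ac peak there was wide in both, with 11264 bases in Cre and 12048 bases in GFP. The regions at chr10:21713048-21713623, chr17:29234371-29235167, chr17:34256755-34257343 and chr3:86353909-86354690 had ratios of 16.3, 14.1, 11.8 and 11.6. Each of the 5 lay within 25 to 403 bases of another H3K4me3 peak, and its Cre peak met 2 or 3 GFP peaks. At the region on chromosome 2, the 2 GFP peaks together came to 10169 bases. Of the 3404 regions with a ratio of at least 1.5, 2591 (76.1%) lay under a Cre call that met 2 or more GFP H3K4me3 peaks. The ratio sets the whole Cre call against only 1 of those GFP peaks, which itself makes it large. The same share over all regions is not given, so 76.1% describes these regions only.

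The comparison is cleaner at 10864 regions (68.2%), called 1-to-1 regions here. At these the region met 1 peak of each other active list, and each of those peaks met 1 GFP H3K4me3 peak. The other lists were not matched to each other. A second Cre H3Ac peak on the Cre H3K4me3 call, off the region, is thus possible and is left out of the edges and centres below. Their median H3K4me3 width ratio was 1.08 with quartiles of 0.987 and 1.21, and their median H3Ac ratio was 0.993. The Cre H3K4me3 peak reached past the GFP peak by a median of 51 bases at the lower and 51 bases at the higher coordinate edge. It was the longer one at both edges at 5143 regions (47.3%), the shorter one at both edges at 1115 (10.3%), and longer at 1 edge and shorter at the other at 4522 (41.6%). The 2 peak centres lay a median of 70.5 bases apart.

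The Cre to GFP ratio was larger at small peaks than at large ones when both widths entered the sorting. With the 1-to-1 regions sorted by the mean of their Cre and GFP widths, the median H3K4me3 ratio was 1.12 below 1000 bases and 1.12 between 1000 and 1500 bases. It was 1.08 between 1500 and 2000 bases, 1.06 between 2000 and 2500 bases, 1.03 between 2500 and 3000 bases and 1.03 from 3000 bases on. The H3Ac ratio in the same bins went from 1.00 below 1000 bases to 0.969 from 3000 bases on. The shape of the trend depends on the width used for sorting. By GFP width the H3K4me3 ratio ran from 1.19 in the narrowest bin to 1.00 in the widest, whereas by Cre width it was 1.04 in the narrowest bin and 1.09 in the widest. In each of the 3 orders the ratio fell between 1000 and 3000 bases.

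**Figure D2:**
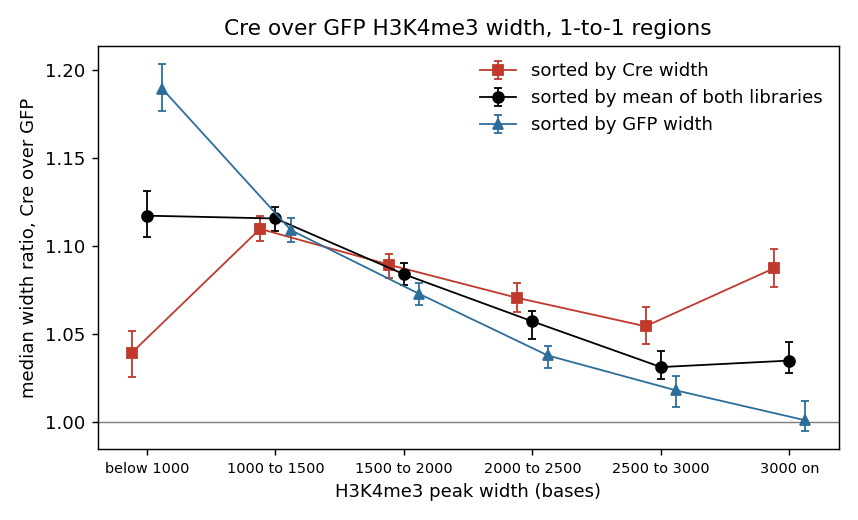
Median ratio of Cre to GFP H3K4me3 width at the 1-to-1 regions in bins of peak width (bases), sorted by Cre width (red squares), the mean of both libraries (black circles) and GFP width (blue triangles), with 95% intervals of the median from order statistics. From the bin at 1000 to 1500 bases to the bin at 2500 to 3000 bases all 3 lines descend, and they part at the narrowest and widest bins, where the sorting width matters most.

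At the regions with the smallest H3K4me3 ratios, H3Ac was narrower in Cre as well. At chr14:27259750-27262666 the Cre H3K4me3 peak was 846 bases wide with a score of 63.42, against 2917 bases and 900.03 in GFP, a ratio of 0.29. The H3Ac peak there was 2707 bases wide with a score of 350.8 in Cre, against 3571 bases and 2093 in GFP. At chr13:49412339-49415992 the H3K4me3 peak was 1279 bases wide in Cre and 3654 bases wide in GFP. H3Ac at that region covered 2062 bases in 2 peaks in Cre, with a highest score of 185.5, against a single peak of 5013 bases with a score of 2166 in GFP. The remaining 3 of the 5 smallest ratios were at chr4:129848689-129851308 (0.342), chr7:105566760-105568679 (0.352) and chr6:34559065-34561866 (0.362), with H3Ac ratios of 0.750, 0.733 and 0.178. The last of these is a broken call: 5 Cre H3Ac peaks with 15049 bases lay under the GFP H3Ac peak of 19399 bases.

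For H3Ac the extreme ratios again mixed broken and whole peaks. At chr1:140727632-140728748, the smallest ratio, an H3Ac peak of 1770 bases in Cre stood against one of 19138 bases in GFP, a ratio of 0.0925, while H3K4me3 was 1270 bases wide in Cre and 1117 bases wide in GFP. The GFP domain was called as 3 peaks in Cre, which together came to 17017 bases. At chr7:3302416-3303518 an H3Ac peak of 1963 bases in Cre stood against one of 15059 bases in GFP, and 4 Cre peaks with 8221 bases lay under it. At chr5:97225423-97227456 the widths were 2177 bases in Cre and 14762 bases in GFP, with 3 Cre peaks and 12475 bases under it. The other 2 of the smallest 5, chr6:52167197-52167575 (0.112) and chr6:29297150-29297990 (0.139), likewise had 2 and 3 Cre peaks under the GFP call. Over all 928 regions with an H3Ac ratio of at most 1 over 1.5, the GFP call met 2 or more Cre H3Ac peaks at 527 (56.8%). Cre peaks off the region are left out of the ratio, which itself makes it small, and the same share over all regions is not given.

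The largest H3Ac ratio, 14.6 at chr3:88335791-88336521, set side by side 2 H3Ac peaks that did not overlap. The Cre peak was 7354 bases wide and shared 19 bases with the region, and the GFP peak on the region was 504 bases wide. The Cre peak met another GFP H3Ac peak, of 7891 bases, that ended short of the region. The other 4 of the largest ratios were chr4:11087533-11088760 (8.12), chr11:77500180-77500753 (7.62), chr7:52384342-52385445 (7.31) and chr3:86978702-86979676 (6.55), where the Cre call met 5, 2, 3 and 3 GFP H3Ac peaks. Over all 986 regions with a ratio of at least 1.5, the Cre call met 2 or more GFP H3Ac peaks at 537 (54.5%). GFP peaks off the region are left out of the ratio, which itself makes it large, and the same share over all regions is not given.

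By summed width H3Ac was wider than H3K4me3 at most regions in both conditions, and by less in Cre. The median ratio of H3Ac to H3K4me3 width within a library pair was 1.10 in Cre and 1.26 in GFP, and it exceeded 1 at 64.6% of regions in Cre and 83.8% in GFP. Whole Cre H3K4me3 calls that run on over other GFP peaks lower the Cre values. At the 1-to-1 regions, in bins by the mean of both H3K4me3 widths, the median ratio ran from 1.12 to 1.24 in Cre. In GFP it ran from 1.21 to 1.38, and it was lower in Cre in each bin. The H3K4me3 signal at a region lay wholly inside 1 H3Ac peak at 4304 regions in Cre (27.04%) and at 5859 in GFP (36.8%). With neighbouring peaks of each list joined across gaps under 1000 bases, these shares were 59.9% in Cre and 68.1% in GFP, so the level depends on how far peaks were broken up while the order of the conditions stayed.

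Where the acetylated stretch was shifted to 1 side of the H3K4me3 peak, the side was mostly the same in Cre and GFP. Among the 1-to-1 regions, H3Ac ran past 1 edge of H3K4me3 and ended short of the other at 56.3% in Cre and 51.0% in GFP. It ran past both edges at 31.4% in Cre and 41.3% in GFP, and ended short of both at 11.8% in Cre and 6.80% in GFP. On its longer side H3Ac reached a median of 282 bases past H3K4me3 in Cre and 370 bases in GFP. On the shorter side it ended a median of 59 bases short in Cre (−59) and 15 bases short in GFP (−15). The H3Ac centre lay a median of 176 bases from the H3K4me3 centre in Cre and 184.5 bases in GFP.

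H3Ac ran past 1 edge and ended short of the other in both conditions at 3919 of the 10864 regions (36.1%), and past the same edge at 3719 of these (94.9%). By the centres alone, however small the offset, the side was the same at 8791 regions (80.9%). Where the GFP centres were at least 250 bases apart, the Cre H3Ac centre lay on the same side at 3794 of 4113 regions (92.2%), and where they were at least 500 bases apart, at 1588 of 1689 (94.0%). Starting from Cre offsets of at least 500 bases, 1360 of 1421 regions (95.7%) kept the side. The higher-coordinate side was taken at 49.5% of regions in Cre and 49.7% in GFP, so neither direction along the chromosome was favoured. Across the 10864 regions the signed offsets had a Spearman rho of 0.761. The points share the same libraries, 2 in each condition. Which way the nearest gene runs was not analysed here.

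**Figure D3:**
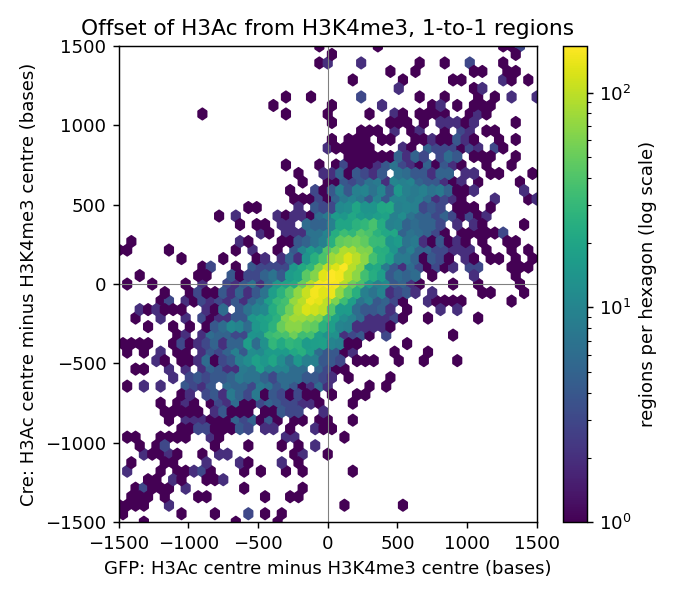
Distance in bases of the H3Ac centre from the H3K4me3 centre in Cre (vertical) against GFP (horizontal) at the 1-to-1 regions, positive toward higher coordinates and shown to 1500 bases, with the number of regions per hexagon on a log colour scale. Most regions lie at the lower left and upper right, where both conditions put H3Ac on the same side (8791 of 10864).

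At a minority of regions H3Ac was called as 2 peaks under 1 GFP H3K4me3 peak, and the gap mostly lay in the central 50% of that peak. This was so at 1230 regions in Cre (7.73%) and 1486 in GFP (9.34%), with 17 more in Cre and 21 more in GFP split into 3. The gap was short, with a median of 113 bases in Cre and 139.5 bases in GFP. Its centre stood at a median of 49.1% of the way along the GFP H3K4me3 peak in Cre (quartiles of 37.0% and 63.0%). In GFP the median was 49.2% (quartiles of 37.5% and 61.2%). Positions run along the chromosome, so gaps spread evenly over both ends would give a similar median. The gap centre fell within the central 50% of that peak at 900 of the 1230 regions in Cre (73.2%) and at 1147 of the 1486 in GFP (77.2%). A gap can lie only where the flanking H3Ac peaks both meet the H3K4me3 peak, which itself favours the middle.

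The split calls recurred at the same regions. H3Ac was split in both conditions at 818 regions, which is 66.5% of those split in Cre and 55.0% of those split in GFP. Of the 14432 regions not split in GFP, 412 (2.85%) were split in Cre. At the 818 regions, the gap centres in Cre and GFP lay a median of 39.5 bases apart. Few regions held 2 Cre H3K4me3 peaks in place of the 1 in GFP (262, or 1.65%).

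Many narrow active regions stood in close pairs, with a short stretch between 2 H3K4me3 peaks. In all, 3790 pairs of neighbouring regions lay less than 1000 bases apart in GFP, with a median gap of 281 bases and quartiles of 135 and 493. Joined across such gaps, the 15918 regions formed 12128 loci, of which 8505 held 1 region, 3480 held 2, 120 held 3, 22 held 4 and 1 held 5. Regions in a pair or run numbered 7413 (46.6%). They had a median GFP width of 1338 bases, against 1781 bases for single regions. Counting neighbours outside the rule as well, 51.7% of the narrow active regions had another GFP H3K4me3 peak within 1000 bases. Among peaks that dropped out, this share was 34.0% for wide ones, 34.2% for those over a repressive peak and 25.4% for those with no GFP H3Ac. It was 40% for those that dropped out at Cre H3Ac and 32.4% for those at Cre H3K4me3. The steps of the rule define these classes, and the width limit keeps short pieces of a broken call. The choice of regions thus enters this contrast, which is description only, and the share over all autosomal peaks is not given.

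By the rule, each other list either held a gap at a pair or filled it, and Cre H3K4me3 filled it most often. A single peak spanned both regions of 1365 pairs in Cre H3K4me3 (36.0%), of 443 pairs in Cre H3Ac (11.7%) and of 339 pairs in GFP H3Ac (8.94%). The peaks stayed apart in all 4 active lists at 2299 pairs (60.7%) and were spanned in the other 3 lists together at 161 (4.25%). Filled gaps were short. Where Cre H3K4me3 spanned the pair, the GFP gap had a median of 125 bases, against 401 bases where it did not. Of the 338 gaps under 50 bases, Cre H3K4me3 spanned 296, Cre H3Ac 154 and GFP H3Ac 115. Accordingly the median Cre to GFP H3K4me3 width ratio was 1.203 for regions in pairs or runs and 1.08 for single regions.

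**Figure D4:**
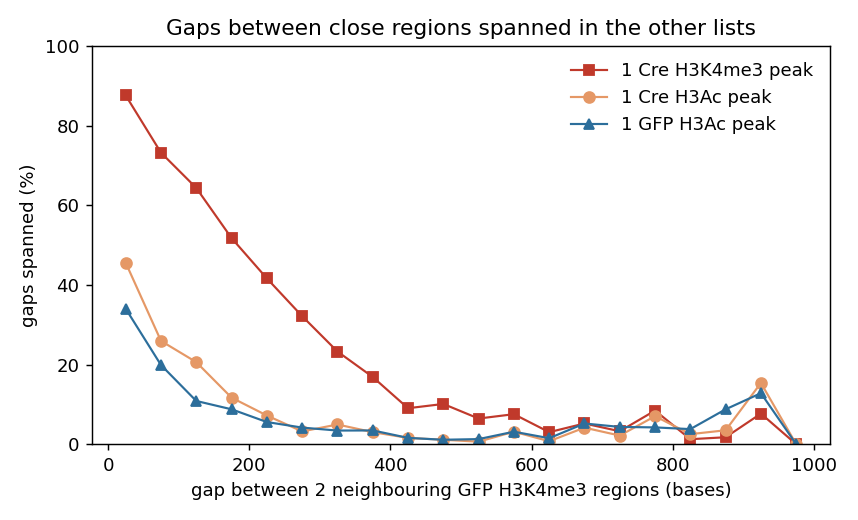
Share of the gaps (%) between close neighbouring regions that a single peak spans in Cre H3K4me3 (red), Cre H3Ac (orange) and GFP H3Ac (blue), in steps of 50 bases of the GFP H3K4me3 gap. Of the 338 narrowest gaps, Cre H3K4me3 spanned 296 and GFP H3Ac 115, and past 600 bases the lines lie close together, with fewer pairs per step to the right (49 in the last one).

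Where a list did not fill the gap, its gap nearest to the GFP H3K4me3 gap was measured. The rule put a peak of each list on both regions of a pair. Such a gap therefore had to lie within the pair, which itself keeps the distances short. In Cre H3K4me3 its centre lay a median of 46 bases from the centre in GFP H3K4me3, and within 250 bases at 98.9% of 2425 pairs. For Cre H3Ac the median distance was 44 bases over 3347 pairs, and for GFP H3Ac 46.5 bases over 3451 pairs. The gap itself differed in length between the marks, with a median of 243 bases in Cre H3K4me3, 400 bases in Cre H3Ac and 447 bases in GFP H3Ac. A pair with the median GFP gap, chosen after its values were seen, lies at chr12:17887787-17888668 and chr12:17888950-17890507. Its gap was 168 bases in Cre H3K4me3 and 590 bases in Cre H3Ac, against 281 bases in GFP H3K4me3 and 773 bases in GFP H3Ac.

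The longest run, also picked after its values were seen, held 5 regions between positions 46111280 and 46120681 of chromosome 19. From low to high coordinates their Cre H3K4me3 widths were 2512, 1426, 1267, 2833 and 1300 bases, and their GFP widths were 2531, 1009, 1259, 2390 and 803 bases. Cre H3K4me3 kept all 5 apart and was wider at 4 of them. In Cre H3Ac, 1 peak of 2849 bases ran across the pair after the first region and another of 2520 bases lay on the fourth. In GFP H3Ac a single peak of 5253 bases covered the middle 3.

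Many of the regions stood at the top of the score scale. The median Cre H3K4me3 score was 2005 with quartiles of 602.5 and 3100, against a GFP median of 1091 with quartiles of 300.7 and 2875. For H3Ac the median was 1068 in Cre and 1096 in GFP. Scores pile up at 3100, a ceiling reached by 36.6% of the regions in Cre H3K4me3, 11.9% in Cre H3Ac, 22.9% in GFP H3K4me3 and 16.1% in GFP H3Ac. The ceiling was reached in all 4 lists at 1321 regions (8.30%), and 24 regions (0.151%) had scores under 100 in all 4. A score under 100 in at least 1 list was found at 1850 regions (11.6%), and in GFP H3K4me3 at 1246 (7.83%). A score grows with depth, which is not known here, so the higher Cre H3K4me3 scores cannot be told apart from deeper sequencing or another control, and that bears on the wider Cre peaks as well.

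Ranks within a list take out the overall scale. The percentile rank of a region's H3K4me3 score among the 20543 autosomal peaks shared by the lists moved by a median of −5.53 points in Cre against GFP, and by −5.34 points over all 20543. Ties at the ceiling were more numerous in Cre. Ranked among peaks below 3100 in both lists, which leaves 9990 of the regions, the median was −1.74 points. For H3Ac the median move was 0.572 points, against 0.833 over all 18128 shared peaks. Its direction is not settled: ranked below 3100 in both lists it was −0.270 points for 13010 regions, and with the width limit at 2000 bases −0.203 points. The order of the regions was largely kept, with a Spearman rho across the 15918 regions of 0.834 between Cre and GFP H3K4me3 scores and 0.902 between Cre and GFP H3Ac scores. Between the 2 marks it was 0.749 in Cre and 0.784 in GFP. Wide peaks have high scores (rho of 0.826 in Cre and 0.851 in GFP for H3K4me3 at the 1-to-1 regions), and these coefficients describe the regions without any test.

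At 1422 regions (8.93%, background 8.31%) the H3K4me3 rank was at least 20 points higher in Cre, and at 307 (1.93%, background 2.57%) at least 20 points lower. The Cre H3K4me3 call met 2 or more GFP H3K4me3 peaks at 1114 of the 1422 (78.3%) and at 10 of the 307 (3.26%). A small GFP peak under such a call takes the score of the whole Cre call, which itself favours a gain in rank. The same share over all regions is not given, so neither value is read as an excess or a lack. Among the 1-to-1 regions, 241 were higher and 248 lower. H3Ac, immunoprecipitated separately, moved with H3K4me3 at these. At the 241, the H3Ac rank moved by a median of 14.2 points, the H3Ac width ratio was 1.199, and the H3Ac rank was lower in Cre at 41. At the 248, the H3Ac rank moved by a median of −14.5 points, the H3Ac width ratio was 0.851, and the H3Ac rank was lower in Cre at 232 (93.5%). By the same limit of 20 points, H3Ac was higher in Cre at 97 of the 241 and at 0 of the 248 (background 4.34%), and lower in Cre at 1 of the 241 and at 82 of the 248 (background 3.93%). At the 10375 regions whose H3K4me3 rank moved by less, the H3Ac rank moved by a median of 0.397 points and was lower in Cre at 48.4%. Both marks of a condition come from MEFs of that condition, and the labels do not say whether they share a control library; the part of shared cells or controls in this was not tested.

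The 5 largest falls in H3K4me3 rank include 3 of the 1-to-1 regions. At chr19:36309629-36312940 the H3K4me3 peak was 2050 bases wide with a score of 434.3 in Cre, against 3312 bases and 3100 in GFP, a fall of 60.6 points (−60.6). H3Ac there was 1955 bases wide with a score of 181.1 in Cre, against 3658 bases and 2684 in GFP. The peak at chr1:74080938-74083724 moved by −54.1 points, with H3Ac at 2827 bases in Cre and 4291 bases in GFP. It is not a 1-to-1 region, and 2 Cre H3Ac peaks with 3919 bases lay under that GFP H3Ac peak. The regions at chr13:49412339-49415992 (−52.7 points, also not 1-to-1) and chr14:27259750-27262666 (−50.7 points) were described above by their width. The fifth, chr13:49392107-49394689 (−45.6 points), lies close to the chromosome 13 region just named. Its H3K4me3 peak was 1453 bases wide with a score of 93.07 in Cre, against 2583 bases and 817.6 in GFP, and its H3Ac peak was 1114 bases wide in Cre and 4046 bases wide in GFP.

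Among the 5 largest gains in H3K4me3 rank, 4 were small GFP peaks whose Cre peak met other GFP peaks as well. The Cre peak at chr14:117328008-117328677 (96.7 points) met 3 GFP peaks and shared 60 of the region's 670 bases. A single Cre peak met 2 GFP peaks, the region among them, at chr10:120801434-120802078 (95.3), chr5:108494063-108494646 (83.0) and chr6:28372967-28373497 (82.9). The exception was chr3:18143212-18144083, a 1-to-1 region that gained 88.7 points. Its H3K4me3 peak was 3732 bases wide with a score of 3116 in Cre, against 872 bases and 91.67 in GFP. H3Ac there was 1060 bases wide with a score of 189.3 in Cre, against 921 bases and 64.56 in GFP, and 2 Cre H3Ac peaks together covered 3581 bases of the Cre H3K4me3 call.

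Repressive peaks were absent from the regions by the rule, and mostly lay far from them. The nearest H3K27me3 peak was a median of 52188 bases away in Cre and 43725 bases in GFP, with 11.9% of regions within 5000 bases of one in Cre and 13.2% in GFP. For the other autosomal H3K4me3 peaks that did not overlap one, these shares were 18.9% in Cre and 21.4% in GFP. H3K9me3 was sparser, with 3985 peaks in Cre and 10885 in GFP. It came within 5000 bases of 0.854% of the regions in Cre and 1.16% in GFP, against 2.75% in Cre and 3.82% in GFP for the others. The rule kept the regions clear of every H3K27me3 and H3K9me3 list, while the others only had to miss the list measured. The choice of regions thus enters both contrasts, which are description only.

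Separate H3Ac peaks, with no H3K4me3 peak of the same library on them, lay near many of the regions. There were 20924 such peaks in Cre and 28318 in GFP. At least 1 lay within 10000 bases of 36.8% of the regions in Cre and 45.1% in GFP, against 24.3% in Cre and 24.2% in GFP for the other autosomal H3K4me3 peaks. The regions carried H3Ac in both conditions by the rule, while 4425 of the others dropped out for want of GFP H3Ac. The choice by the same H3Ac lists thus enters this contrast, which is description only. The regions had a mean of 0.539 such peaks in Cre and 0.697 in GFP. The number was lower in Cre at 24.5% of regions, higher at 12.9% and 0 in both at 47.1%. Since the Cre H3Ac list held 42660 peaks in all and the GFP list 48778, fewer calls around the regions and fewer calls in the library cannot be told apart.

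Along the chromosomes the regions followed the H3K4me3 peaks in general. They averaged 6.44 per Mb, from 4.48 per Mb on chromosome 1 to 10.6 per Mb on chromosome 11, with 9.12 per Mb on chromosome 19 and 8.26 per Mb on chromosome 17. The share of H3K4me3 peaks that met the rule varied less, from 63.5% on chromosome 12 to 73.2% on chromosome 19. The Cre to GFP width ratio was nearly the same on each chromosome, with medians from 1.10 on chromosome 13 to 1.14 on chromosome 6 for H3K4me3, and from 0.975 on chromosome 13 to 1.01 on chromosome 4 for H3Ac.

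**Figure D5:**
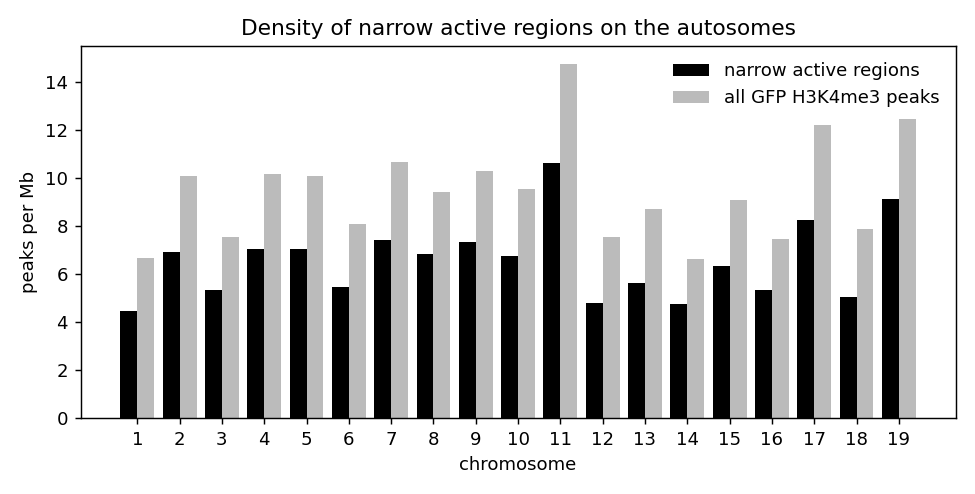
Narrow active regions (black) and all GFP H3K4me3 peaks (grey) per Mb on each of the 19 autosomes, with the length taken as the last peak end over all lists. Both are highest on chromosome 11, with 10.6 narrow active regions per Mb, and the black bars follow the grey ones.

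Within chromosomes the regions were unevenly spread. Of 2482 windows of 1 Mb, 557 (22.4%) held none and the median window held 4, while the densest 249 windows held 5972 regions (37.5%). Close pairs count as separate regions here. The same shares over all GFP H3K4me3 peaks are not given, so whether the spread is particular to the regions was not tested. The most crowded window was at 79 to 80 Mb of chromosome 10, where 59 of 76 GFP H3K4me3 peaks met the rule and 36 of the 59 stood in close pairs. It adjoined the window at 80 to 81 Mb, with 50 of 59. The window at 134 to 135 Mb of chromosome 7 held 51 of 56. The median H3K4me3 width ratio was 1.10 in each of the 3 windows, and the median H3Ac ratio ran from 0.987 to 1.06.

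At the other extreme, 684 regions (4.30%) had no other H3K4me3 peak of either list within 100 kb. The most isolated, chr1:113759857-113761404, lay 1880 kb from the nearest. Its H3K4me3 peak was 3393 bases wide with a score of 2042 in Cre, against 1548 bases and 836.2 in GFP. The next, chr12:95166525-95167739, lay 1762 kb from another and measured 1687 bases in Cre and 1215 bases in GFP. The remaining 3 were chr15:16657963-16658974 (1637 kb), chr10:47173699-47174798 (1578 kb) and chr7:23559545-23560760 (1305 kb). Their scores were low, with 376.3, 107.0 and 200.3 in Cre and 92.87, 123.1 and 155.8 in GFP. Isolation thus went with both strong and weak peaks among these 5.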

How the data were processed

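Chromatin immunoprecipitation lists of 4 marks in Cre and GFP MEFs were used, 8 in all, with 1 library each. Each deposited list gives a peak's chromosome, start, end, name and the authors' score, from 50.00 to 3233. The submitters' processing notes name BWA, SAMtools 0.1.18, bedtools 2.16.2, MACS 1.4.1 and build NCBIM37 (also TopHat2, Bowtie2, Cufflinks and Cuffdiff), without saying which step used which. The control library and the handling of duplicates are not given in the sources used here. Read depth is unknown, so no interval covers it.

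From the deposited coordinates, overlaps (at least 1 base), summed widths of overlapping peaks, edges, gaps and distances were computed. Scores were used as percentile ranks within a list and, at a region with several peaks, as the highest. Python 3.11.15, NumPy 2.4.6, pandas 2.3.3, SciPy 1.17.1 and matplotlib 3.10.9 served, and the overlap steps were checked on simulated peaks. Shares carry exact (Clopper-Pearson) 95% intervals and medians order-statistic intervals; both cover counting error only, and neighbouring peaks are not independent. With 1 library per group no test was made.

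The regions and comparisons were chosen with earlier results of these data known. Regions named are the 5 highest and 5 lowest in each width ratio and in H3K4me3 rank change, the 5 most isolated, the 3 densest windows and the 3 peaks on each side of 4000 bases, none on chromosome 18. In sum, 6 alternatives were tried. The labels' other samples (RNA, Rb chromatin immunoprecipitation and inputs) were not analysed here. Gene tables of another build were not used here, so no gene or sequence is attached to a region.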

Additional observations from a re-analysis of the deposited data

How the results depend on the processing

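With peaks scoring under 100 left out, the share of autosomal GFP H3K4me3 peaks that met the rule was 75.7%, the H3K4me3 width ratio 1.11, its rank change −5.90 points, and H3K4me3 lay inside H3Ac at 25.9% (Cre) and 35.1% (GFP). Requiring 50% overlap gave a share of 68.6%. Joining peaks within 1000 bases gave a share of 60.6%, ratios of 1.06 (H3K4me3) and 0.988 (H3Ac), a rank change of −2.99 points, 59.9% (Cre) and 68.1% (GFP) inside H3Ac, and a median of 4.40 regions per Mb. A limit of 2000 bases gave a share of 47.4%, ratios of 1.18 and 1.01, rank changes of −2.85 (H3K4me3) and −0.203 (H3Ac) points, 24.98% inside in Cre, and 4.63 per Mb; the H3Ac ratio and rank change thus turned direction. Starting from the Cre H3K4me3 list gave a share of 65.8%, ratios of 1.06 and 0.990, rank changes of −2.11 and 0.280 points, and 29.8% (Cre) and 35.5% (GFP) inside. Only 1-to-1 regions gave a share of 47.3%, an H3K4me3 ratio of 1.08, an H3Ac rank change of 0.326 points, 31.8% (Cre) and 42.0% (GFP) inside, and 4.61 per Mb. The other 15 of 48 values moved within their intervals. The causes were not tested. The H3K4me3 ratio stayed above 1, and the share inside H3Ac lower in Cre than in GFP, in all 6. The H3K4me3 rank change stayed below 0 as well, but ties at 3100 enter it. A peak at 3100 in both lists moved by −5.64 points, which was also the median at the 1-to-1 regions. Over all 20543 shared peaks the median was −5.34 points, so the sign is not particular to the regions.

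No paired analysis was possible because each mark has 1 library per condition, which also leaves no replicate to leave out. Unknown read depth and control libraries limit every width and score, and their part was not tested.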

Other observations

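Chromosome X lies outside the rule, and the narrow peaks there with all 3 other active peaks differed in H3K27me3 between the libraries. Of 473 such peaks on chromosome X, 87 (18.4%, exact 95% interval 15.0% to 22.2%) overlapped an H3K27me3 peak in Cre and 15 (3.17%, 1.79% to 5.18%) in GFP. On the autosomes the numbers were 815 of 16872 (4.83%) in Cre and 720 (4.27%) in GFP. No H3K9me3 peak of either list met any of the 473, which allows a share of up to 0.777% by the exact interval. A repressive peak of either condition removed 89 of the 473 (18.8%), against 954 of the 16872 on the autosomes (5.65%), and 384 of the 770 GFP H3K4me3 peaks on chromosome X (49.9%) met the rest of the rule. Their median H3K4me3 width ratio was 1.10, with median widths of 2036.5 bases in Cre and 1604 bases in GFP. The labels do not give the sex of the embryos, and its part in this was not tested.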
